A study of Mus musculus with 4 samples.

Results

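The genes described here were 38 blood clotting and complement genes of the liver, 21 of coagulation and fibrinolysis and 17 of complement. They were chosen by name, and each was read through the array probes whose transcript belongs to it, using the probe with the highest mean intensity over the 4 arrays. All 38 were found, among 22911 gene symbols that the 56605 non-control probes of the array could be matched to.

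Fetal livers of mice at mid-gestation were compared between dams fed a control diet (CD) and dams fed a high-fat diet (HFD) while pregnant. The dams were C57BL/6J mice. The CD gave 4.3% of its energy as fat, 19.2% as protein and 67.3% as carbohydrate, and the HFD gave 60% as fat, 20% as protein and 20% as carbohydrate. Each diet was represented by 2 one-colour Agilent mouse expression arrays, described as biological replicates and tagged female, and all 4 arrays lay on 1 slide. How many fetuses or litters went into an array was not given in the sources used here, so the p-values measure the spread between these arrays, and litter and diet cannot be told apart.

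The liver secretes most of the proteins that clot blood and most of the complement proteins that tag and lyse microbes. Coagulation is a cascade in which vitamin K-dependent proteases, helped by cofactors, turn prothrombin into thrombin, which cuts fibrinogen into fibrin, while inhibitors and plasmin limit and dissolve the clot. Complement is triggered by antibody, by sugar-binding lectins or by the alternative route, and all routes meet at C3 and can end in a membrane pore. In mice, hepatocyte precursors of the fetal liver already transcribe many of these genes while the organ is still the main site of blood formation. Liver-enriched transcription factors of the HNF1, HNF4, C/EBP and FOXA families are known to drive such promoters.

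Promoter windows, from 250 bases before to 50 bases after a transcription start in RefSeq (GRCm38.p6), were given for 30 of the 38 genes in 31 windows, and were searched on both strands. The letters GTTAAT, a half-site of the HNF1 motif, stood in 9 of the 31 windows (29.03%), against 7.1% of all 32851 windows. They belonged to Fga, Fgb, F13b, F2, C1ra, C4bp, Hc, C8a and C8b. A C/EBP pattern, TTGCNNAA, stood in 10 of the 31 (32.26%, against 10.8% of all windows), and a FOXA pattern, TNTTTAC, in 7 (22.58%, against 12.36%). The letters TATAAA stood in 3 windows (9.68%, against 13.62%), and the HNF4 pattern CAAAGTCC in 0 (against 1.42%). Each pattern was counted on its own, so that overlapping letters could count for more than 1, and a match describes the sequence and not a bound site. The 150 bases before the start are printed for 6 genes that hold the half-site there, 3 that serve clot formation and 3 of complement, because genes of both systems carried the same letters. Each is written 5′ to 3′ on the strand of the gene, with the half-site in capitals.
Fga, chr3:83026003-83026152, plus strand: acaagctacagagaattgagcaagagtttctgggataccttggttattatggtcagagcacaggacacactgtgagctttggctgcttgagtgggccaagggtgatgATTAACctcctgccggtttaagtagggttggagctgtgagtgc
Fgb, chr3:83049864-83050013, minus strand: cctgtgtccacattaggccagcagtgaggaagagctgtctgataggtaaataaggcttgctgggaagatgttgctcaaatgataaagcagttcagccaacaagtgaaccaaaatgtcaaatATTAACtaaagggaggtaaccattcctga
F13b, chr1:139501557-139501706, plus strand: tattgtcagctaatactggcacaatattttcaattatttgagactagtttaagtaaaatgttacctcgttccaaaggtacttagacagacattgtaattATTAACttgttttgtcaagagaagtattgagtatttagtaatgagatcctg
C4bp, chr1:130661619-130661768, minus strand: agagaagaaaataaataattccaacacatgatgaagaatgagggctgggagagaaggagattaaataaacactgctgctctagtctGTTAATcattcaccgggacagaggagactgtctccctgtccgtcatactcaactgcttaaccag
Hc, chr2:35061413-35061562, minus strand: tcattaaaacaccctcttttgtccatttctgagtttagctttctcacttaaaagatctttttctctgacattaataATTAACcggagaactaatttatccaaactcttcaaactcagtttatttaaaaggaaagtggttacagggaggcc
C8a, chr4:104876399-104876548, minus strand: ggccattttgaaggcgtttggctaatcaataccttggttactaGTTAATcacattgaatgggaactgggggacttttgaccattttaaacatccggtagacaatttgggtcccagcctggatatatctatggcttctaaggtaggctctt
In Fga, Fgb, F13b and Hc the half-site read ATTAAC on the strand of the gene, and in C4bp and C8a it read GTTAAT.

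Each level below is a log2 intensity from which the 75th percentile over the probes of that array was subtracted, so that 0 marks this percentile, and it describes 1 probe. Levels of different genes depend on their probes and are not ranked. The 75th percentile itself was an intensity of 1073 and 704 on CD replicates 1 and 2, and 969 and 909 on HFD replicates 1 and 2. No spot was saturated. Each of the 38 probes was clearly above the local background on every array, by the scanner's own flag, and all passed the filters, which left 41332 probes for the test. Alb, Afp and Ttr, which mark hepatocytes and their precursors, had that flag on every array, as did all 14 markers of these cells that were looked up.

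No coagulation or complement gene differed between the diets beyond the spread between arrays. With limma on all 41332 probes, 0 of the 38 genes had an unadjusted p under 0.05 together with a 2-fold change, and 0 had an unadjusted p under 0.05 at all. Of all probes, 0.769% passed both cutoffs and 3.35% passed the unadjusted p alone. The adjusted p was 1.00 for each of the 38 genes, and 0 of the 41332 probes passed after adjustment. The log2 fold changes (HFD minus CD) ran from -0.41 for Plg to 0.39 for C9, that is from 1.33-fold lower to 1.31-fold higher. Their median was 0.02 over the 38 genes, 0.02 over the 21 coagulation genes and 0.03 over the 17 complement genes, beside 0.03 over all probes tested. The fold change was above 0 in 22 genes and below 0 in 16, and it lay within 0.1 of 0 in 28.

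The intervals show which differences between the diets these 4 arrays did not exclude. The 95% interval of the fold change lay inside a 2-fold change in both directions for 29 of the 38 genes. It reached a 2-fold change for the other 9, Fgb, Fgg, Klkb1, Plg, C4bp, Hc, C8a, C8b and C9. The interval extended to either side of the estimate by 0.81 at the median, by 0.43 for Pros1, the narrowest, and by 1.26 for Plg, the widest, on the log2 scale. These widths are not limits of detection, since a true change larger than its width could also have been missed with 2 arrays a diet. An exact permutation test on 2 against 2 arrays cannot give a two-sided p below 0.333.

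**Figure D1:**
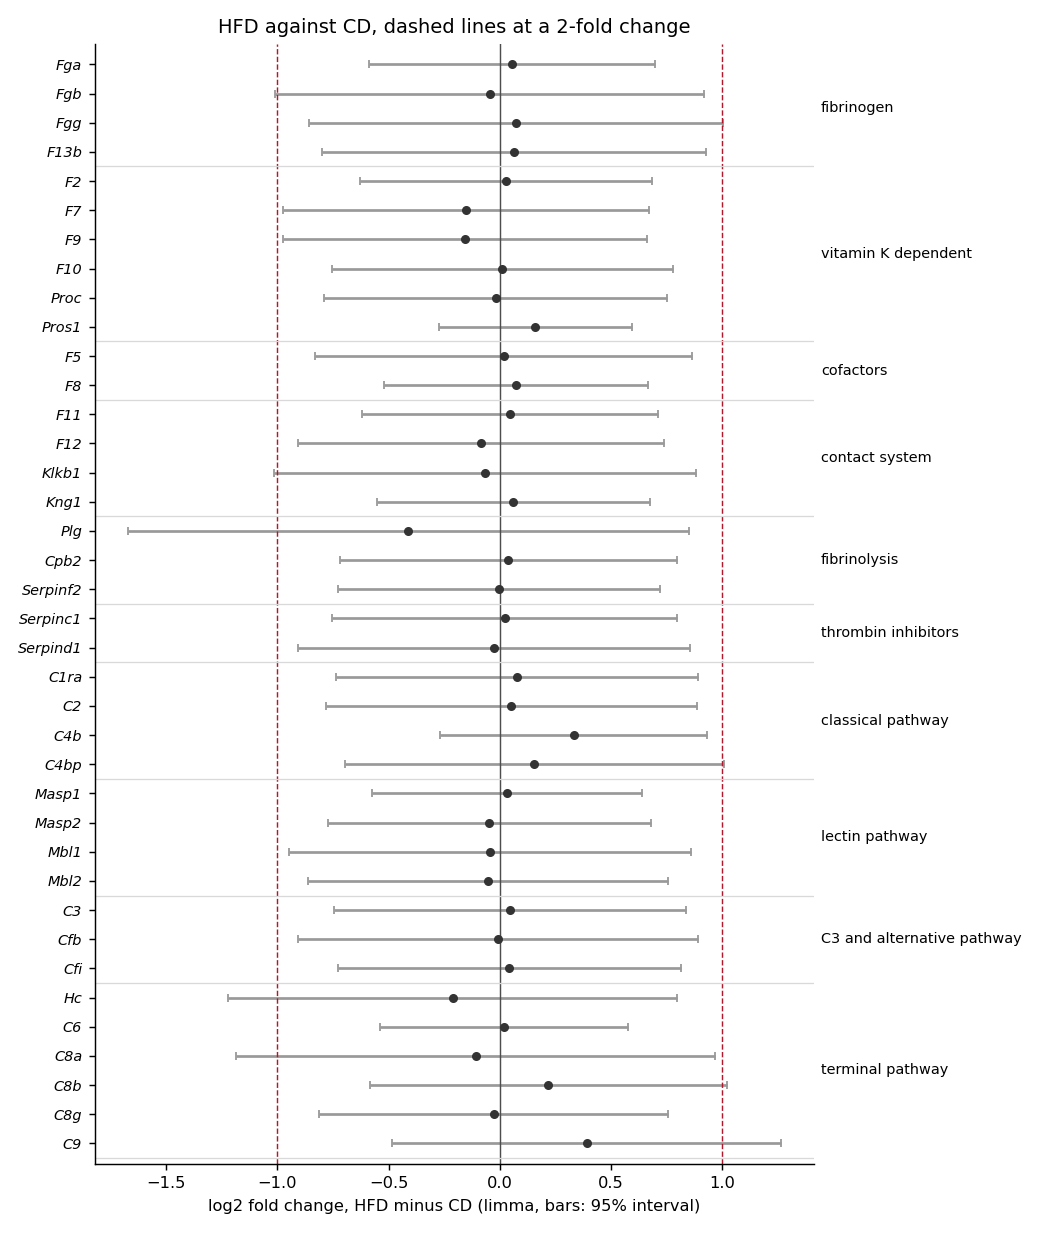
Log2 fold change (HFD minus CD) of each of the 38 genes, ordered by role, with its 95% interval from limma on 2 arrays a diet. Every interval includes 0, and 9 of them reach a dashed line at a 2-fold change.

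The 2 CD arrays stood apart in these genes, and the HFD arrays lay between them. CD replicate 2 was above CD replicate 1 in 37 of the 38 genes, against 52.6% of all probes tested. The median of that difference was 0.74 on the log2 scale, or 1.68-fold, while it was 0.03 over all probes tested. Both HFD arrays lay between the CD arrays in 35 of the 38 genes, against 39.2% of all probes. In 29 genes the arrays stood in the order CD replicate 1, HFD replicate 2, HFD replicate 1, CD replicate 2 from low to high, an order found in 13.9% of all probes. The HFD arrays were close to each other: HFD replicate 2 was below HFD replicate 1 in 31 of the 38 genes, against 52.8% of all probes. The median of that difference was -0.12 over the 38 genes. At the median gene the SD between the arrays of a diet was 0.53 for CD and 0.10 for HFD. The CD arrays were further apart over all probes too, where the difference between replicates had an SD of 0.58 for CD and 0.34 for HFD. This is a comparison of 1 array with 1 array of the same diet, so it has no test.

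Part of this rests on the scaling between arrays. Before scaling, the intensities of the 38 genes were nearly alike on the CD arrays, with CD replicate 2 above CD replicate 1 in 28 of 38 and a median difference of 0.14 on the log2 scale. Over all probes tested the same unscaled difference was -0.58, since CD replicate 2 was the dimmer array. The 38 genes therefore stood higher on CD replicate 2 relative to the rest of that array. Brightness moved with it as well: over all probes, with the tested probes cut into 4 equal bins of brightness, the scaled difference had a median of -0.10 in the dimmest bin and 0.19 in the brightest, which held 24 of the 38 genes, whose own median was 0.74. In the next bin down, the medians were 0.04 over all probes and 0.79 over the 11 genes there. With quantile normalization, which evens the intensity distributions, the median of the 38 genes was 0.64 and CD replicate 2 was again above CD replicate 1 in 37. With background correction by normexp it was 0.71, beside 0.20 over all probes.

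**Figure D2:**
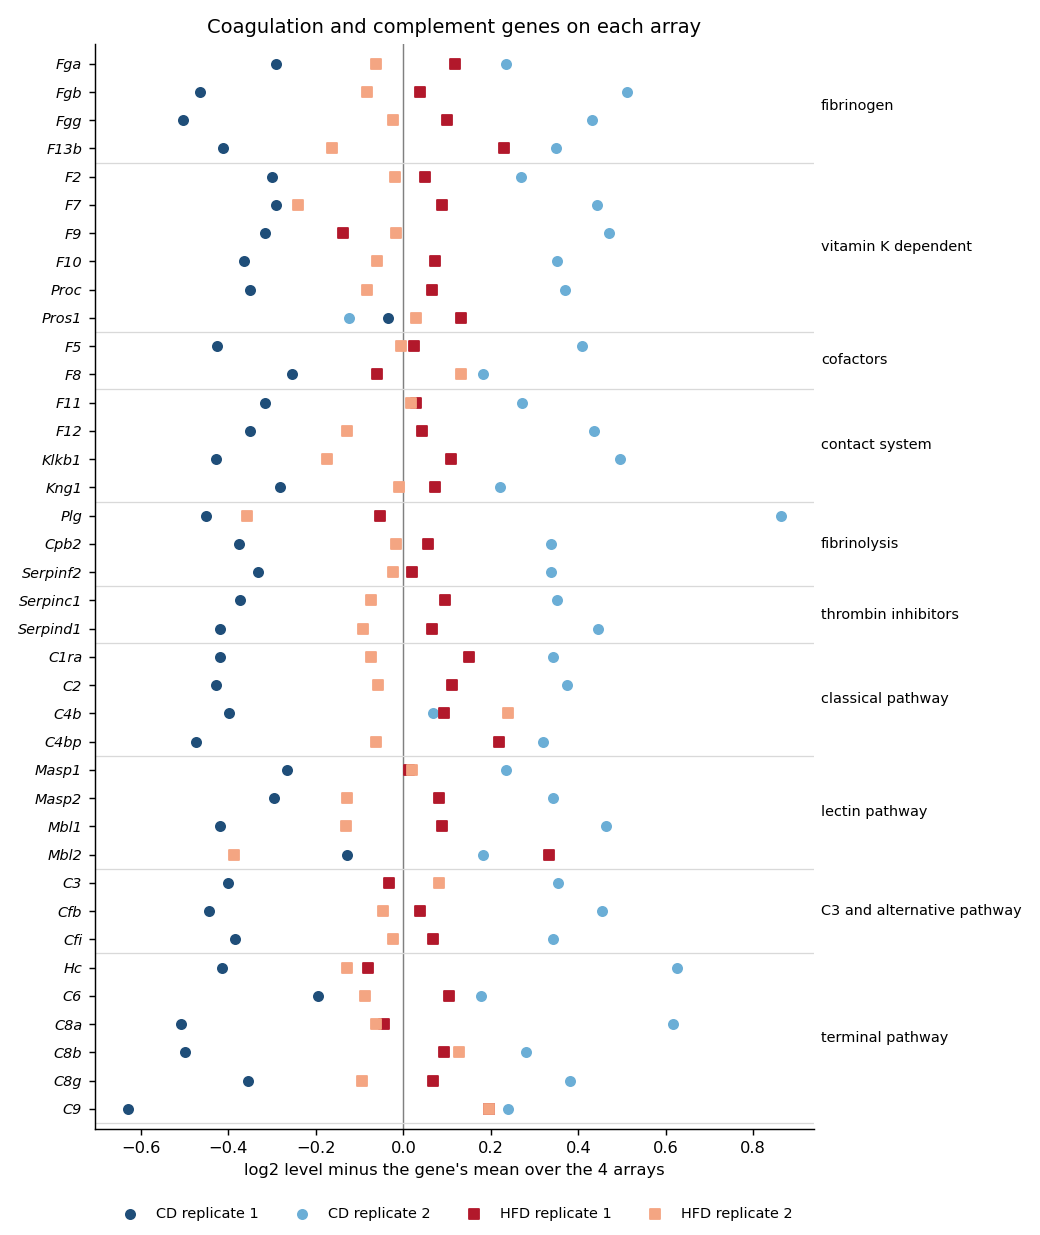
Level of each of the 38 genes on each array, as the log2 level minus the mean of that gene over the 4 arrays, with circles for CD and squares for HFD. CD replicate 1 is the lowest array and CD replicate 2 the highest in most rows, with both HFD arrays between them in 35 of 38.

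Fibrinogen is made of 3 chains encoded by Fga, Fgb and Fgg, and F13b encodes the carrier subunit of the factor that crosslinks fibrin. Fga had levels of 2.98 in CD replicate 1, 3.51 in CD replicate 2, 3.39 in HFD replicate 1 and 3.21 in HFD replicate 2. Both HFD levels lay between those of CD, and the fold change was 0.05 ± 0.24 (SE, n = 2 arrays a diet, limma unadjusted p = 0.832). The dimmer probe of Fga gave a fold change of 0.41 (limma unadjusted p = 0.0686), the largest among the 12 further probes of these genes. The 2 probes differed in pattern. On the dimmer one the levels were 1.66 and 1.84 in CD replicates 1 and 2 and 2.23 and 2.10 in HFD replicates 1 and 2. Both HFD arrays were thus above CD there, and the CD arrays differed by 0.17. The fold changes of Fgb, Fgg and F13b were -0.05, 0.07 and 0.06. Between the CD arrays, Fgb differed by 0.98, Fgg by 0.93, F13b by 0.76 and the brightest probe of Fga by 0.53, all higher on CD replicate 2.

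F2 (prothrombin), F7, F9, F10, Proc (protein C) and Pros1 (protein S) need vitamin K for their maturation. Pros1, the cofactor of activated protein C, was the 1 gene of the 38 whose brightest probe was not higher on CD replicate 2. It had levels of 2.53 in CD replicate 1, 2.44 in CD replicate 2, 2.69 in HFD replicate 1 and 2.59 in HFD replicate 2. The HFD arrays were both above the CD arrays by a small step, 0.16 ± 0.16 (SE, n = 2 arrays a diet, limma unadjusted p = 0.378). Groups that did not overlap were found in 2 of the 38 genes, Pros1 and C4b, against 30.6% of all probes. The dimmer probe of Pros1 gave a fold change of -0.07, so the small step was not seen with it. That probe was higher on CD replicate 2, by 0.12. The other 5 genes of the role were higher on CD replicate 2 by 0.57 (F2) to 0.79 (F9), and had fold changes between the diets from -0.16 (F9) to 0.03 (F2).

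The cofactors F5 and F8 speed the reactions of F10 and F9. F8, the factor lacking in haemophilia A, had levels of -3.51 in CD replicate 1, -3.07 in CD replicate 2, -3.32 in HFD replicate 1 and -3.12 in HFD replicate 2. The groups overlapped, with a fold change of 0.07 ± 0.22 (SE, n = 2 arrays a diet, limma unadjusted p = 0.759). F5 was higher by 0.84 on CD replicate 2, and its HFD arrays differed from each other by 0.03.

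The contact system starts clotting on negatively charged surfaces through F12, Klkb1 (plasma prekallikrein), Kng1 (kininogen) and F11. F12 had levels of 2.86 in CD replicate 1, 3.65 in CD replicate 2, 3.25 in HFD replicate 1 and 3.08 in HFD replicate 2. Again HFD lay inside the range of CD, and the fold change was -0.09 ± 0.31 (SE, n = 2 arrays a diet, limma unadjusted p = 0.794). Between the CD arrays, Klkb1 differed most in this role, by 0.92, and Kng1 least, by 0.50. Kng1 has a close copy in Kng2, and the files do not show whether its probes tell them apart.

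Plg encodes plasminogen, the precursor of the enzyme that dissolves fibrin, and it was the gene with the lowest fold change and the widest spread. Its levels were -0.50 in CD replicate 1, 0.81 in CD replicate 2, -0.10 in HFD replicate 1 and -0.41 in HFD replicate 2. CD replicate 2 stood alone, 0.92 above the next array, and the fold change was -0.41 ± 0.48 (SE, n = 2 arrays a diet, limma unadjusted p = 0.429), with a 95% interval from -1.67 to 0.85. Without CD replicate 1 the fold change of Plg was -1.07 (limma unadjusted p = 0.0131), past both cutoffs, and without CD replicate 2 it was 0.25 (limma unadjusted p = 0.29). Cpb2 and Serpinf2, which protect fibrin from plasmin, had fold changes of 0.039 and -0.0031 and differed by 0.71 and 0.67 between the CD arrays.

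Serpinc1 (antithrombin) and Serpind1 (heparin cofactor II) block thrombin. Serpind1 had levels of 4.63 in CD replicate 1, 5.497 in CD replicate 2, 5.12 in HFD replicate 1 and 4.96 in HFD replicate 2. Its diets overlapped, with a fold change of -0.03 ± 0.33 (SE, n = 2 arrays a diet, limma unadjusted p = 0.94). Serpinc1, at 0.02, likewise had both HFD arrays between the CD arrays.

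In the classical complement pathway, C1ra is a protease of the first complex, C2 and C4b form the enzyme that cuts C3, and C4bp restrains that enzyme. C4b had the smallest p among the brightest probes of the 38 genes. Its levels were 0.32 in CD replicate 1, 0.78 in CD replicate 2, 0.81 in HFD replicate 1 and 0.96 in HFD replicate 2. Both HFD arrays were above both CD arrays, the nearer of them by 0.03, and the fold change was 0.33 ± 0.23 (SE, n = 2 arrays a diet, limma unadjusted p = 0.208). A dimmer probe of C4b gave 0.14. The fold changes of C1ra, C2 and C4bp were 0.08, 0.05 and 0.16. C4b and C1ra have close copies in C4a and C1rb, and which of the copies their probes read is uncertain.

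The lectin pathway starts with Mbl1 and Mbl2, which bind sugars on microbes, and their proteases Masp1 and Masp2. Mbl2 had levels of -0.74 in CD replicate 1, -0.43 in CD replicate 2, -0.28 in HFD replicate 1 and -1.001 in HFD replicate 2. It was the exception among the 38 in the HFD arrays, which differed by 0.72 and lay outside the CD arrays on both sides, with a fold change of -0.05 ± 0.30 (SE, n = 2 arrays a diet, limma unadjusted p = 0.869). Mbl1, Masp1 and Masp2 had both HFD arrays between the CD arrays and fold changes from -0.05 to 0.03.

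C3 is the protein on which the pathways converge, Cfb supplies the protease of the alternative route, and Cfi inactivates C3 and C4 fragments. C3 had levels of 6.95 in CD replicate 1, 7.71 in CD replicate 2, 7.32 in HFD replicate 1 and 7.43 in HFD replicate 2. The HFD levels lay between those of CD, and the fold change was 0.05 ± 0.30 (SE, n = 2 arrays a diet, limma unadjusted p = 0.882). Cfb and Cfi had fold changes of -0.01 and 0.04 and were higher on CD replicate 2 by 0.90 and 0.73.

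The terminal pathway builds the membrane pore from Hc (C5), C6, the 3 chains of C8 and C9. C9, the subunit that forms the wall of the pore, had the highest fold change of the 38 genes. Its levels were -1.30 in CD replicate 1, -0.43 in CD replicate 2, -0.48 in HFD replicate 1 and -0.48 in HFD replicate 2. CD replicate 1 alone was low, and the other 3 arrays lay within 0.045 of each other, so that the fold change was 0.39 ± 0.33 (SE, n = 2 arrays a diet, limma unadjusted p = 0.294). C8a and Hc, after Plg, differed most between the CD arrays, by 1.13 and 1.04. C8b (0.22) and Hc (-0.21) had fold changes of opposite sign, neither past its spread. The probe of C6 gave intensities of 30.3 to 39.7 and differed by 0.37 between the CD arrays.

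**Figure D3:**
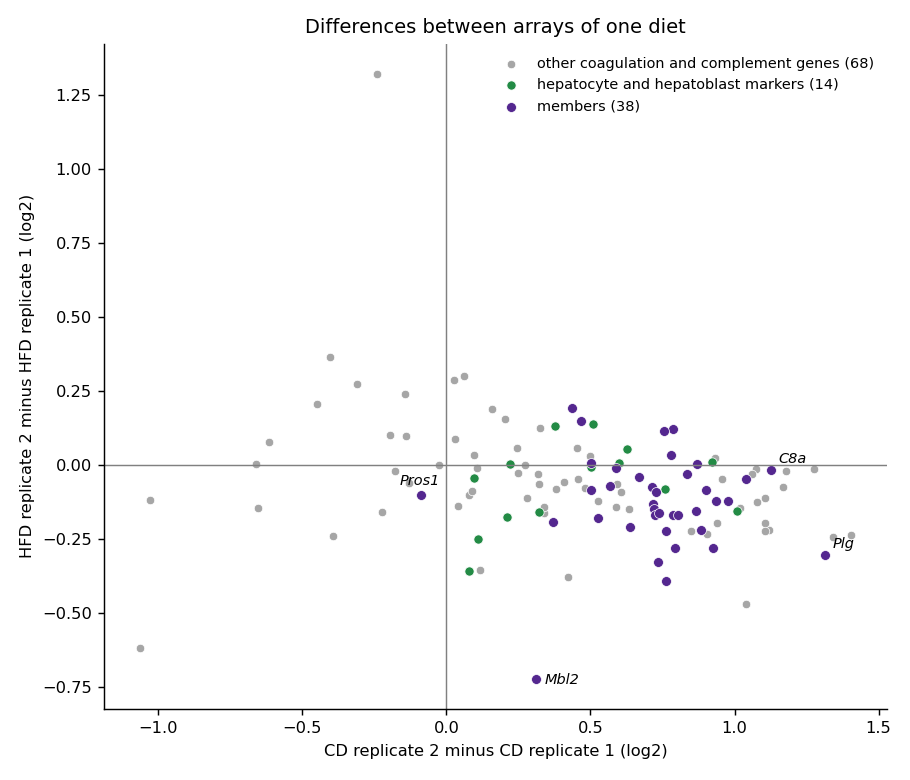
Difference between the CD arrays (x axis) and between the HFD arrays (y axis) in log2 level, for the 38 genes, 68 other coagulation and complement genes and 14 hepatocyte and hepatoblast markers flagged above background on each array. The 38 genes lie to the right of 0 except Pros1. Their HFD differences run from -0.72 for Mbl2, followed by -0.39 for F13b, to 0.19 for F8.

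Of the 38 genes, 10 had more than 1 probe, and these 12 further probes gave 0 with an unadjusted limma p under 0.05 and fold changes from -0.19 to 0.41. The probes of Pros1, C3, Kng1 and Masp1 gave fold changes of both signs, and no probe of the 38 genes reached 1.5-fold in either direction. CD replicate 2 was above CD replicate 1 in 12 of the 12, by a median of 0.68, and both HFD arrays lay between the CD arrays in 9 of them.

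Other genes of the same systems, 32 of coagulation and 38 of complement with a probe, gave no call either. Of the 68 that could be tested, 0 passed both cutoffs in limma and 0 had an unadjusted p under 0.05. Their median fold change was 0.05, with 39 of the 68 above 0. Cfd and Vsig4 were too dim to be tested. The difference between the CD arrays was smaller and less uniform here, with a median of 0.26 over the coagulation genes (24 of 32 higher on CD replicate 2) and of 0.36 over the complement genes (28 of 38). Both HFD arrays lay between the CD arrays in 38 of the 70.

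Other lists of liver secretions were likewise mostly higher on CD replicate 2. In 12 plasma carriers such as Alb and Ttr, CD replicate 2 was above CD replicate 1 in 12 of 12, by a median of 0.70. The 15 acute phase genes gave 14 of 15 and a median of 0.56, and 11 serpins gave 10 of 11 and 0.60, although 3 of the former (Orm1, Orm2 and Serpina3n) and 1 of the latter (Serpina3k) were not above background on any array. Between the diets, the medians of the tested genes of these lists were -0.01, -0.02 and -0.06. In these lists 12 carriers, 12 acute phase genes and 10 serpins were tested. Only Hamp (hepcidin, a hormone that restrains iron uptake) had an unadjusted limma p under 0.05, against 3.35% of all probes. Its levels were -2.52 in CD replicate 1, -1.96 in CD replicate 2, -1.16 in HFD replicate 1 and -1.55 in HFD replicate 2, higher in HFD by 0.89 ± 0.28 (SE, n = 2 arrays a diet, limma unadjusted p = 0.0273, adjusted p = 1.00), which is under 2-fold.

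Markers of several cell types moved with the difference between the CD arrays. The 14 hepatocyte and hepatoblast markers were higher on CD replicate 2 in 14 of 14, by a median of 0.44. The lists are not separate, since Alb, Afp, Ttr, Trf and Ahsg were also among the plasma carriers, and Serpina1a among the serpins. The sum of the linear levels of the 14 markers was 1933 in CD replicate 1, 2902 in CD replicate 2, 2309 in HFD replicate 1 and 2357 in HFD replicate 2, in multiples of the 75th percentile. The same sum over the 38 genes was 711 in CD replicate 1, 1184 in CD replicate 2, 952 in HFD replicate 1 and 911 in HFD replicate 2. Erythroid markers were higher on CD replicate 2 in 7 of 7 (median 0.49, sums of 898 and 1231 for CD, then 1037 and 1115 for HFD), macrophage markers in 8 of 8 (median 0.51, sums of 54.1 and 71.3, then 71.2 and 69.7) and megakaryocyte and platelet markers in 6 of 6 (median 0.82, sums of 67.2 and 124.7, then 106.7 and 103.0). Stellate and mesenchymal markers mostly went the other way, with 2 of 7 higher on CD replicate 2 and a median of -0.45. Those 2 were Reln, with a difference of 0.42, and Lrat, with 0.55. The differences of Ngfr, Pdgfrb, Col3a1, Des and Col1a1 ran from -0.40 (Ngfr) to -1.34 (Col1a1). The sums of this list were 228.6 and 116.5, then 164.9 and 179.6, and came mostly from Col1a1 and Col3a1. Endothelial markers were higher in 4 of 7, with a median of 0.11 and sums of 24.6 and 24.6, then 25.8 and 27.6. Every marker in these lists was flagged above background on each array except Vsig4, a macrophage receptor, which was above it on none.

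Genes of the placenta and the yolk sac were looked up because tissue next to the fetus can be carried along. Of 9 trophoblast and decidua genes, CD replicate 2 was the higher of the CD arrays in 7 (median difference 1.45 over the 9). In 6 the groups did not overlap, with HFD lower, while 30.6% of all probes did not overlap in either direction. Of the 4 that passed the filters, 1, Psg17, fell by 3.05 (limma unadjusted p = 0.0081, adjusted p = 1.00). Tpbpa, Prl3b1 and Prl8a8 were flagged above background on every array but not tested, because their CV was over 50% in both groups. From CD to HFD their mean levels went from 3.91 to -0.0037 (Tpbpa), from 2.15 to -1.65 (Prl3b1) and from 0.69 to -4.01 (Prl8a8). Psg17 was flagged above background on 3 arrays and Ctsq, 1 of the 6, on 2. The level of Psg17 in HFD replicate 2 was -5.59, where the lowest flagged level was -5.70. Tpbpa, a marker of the placental junctional zone, had levels of 3.01 in CD replicate 1, 4.804 in CD replicate 2, 1.00 in HFD replicate 1 and -1.01 in HFD replicate 2. The sums of the 9 were 61.6 in CD replicate 1, 61.4 in CD replicate 2, 46.7 in HFD replicate 1 and 49.6 in HFD replicate 2. Gcm1 alone gave 50.2, 19.4, 43.3 and 48.4 of these sums, and the other 8 genes gave 11.5, 42.0, 3.48 and 1.13 in the same order. Syna was not above background on any array. Yolk sac genes, several of which the fetal liver also expresses, were higher on CD replicate 2 in 6 of 6, by a median of 0.72, with sums of 288.1 and 486.7, then 378.9 and 362.0. Among them was Rbp4, which was also listed with the plasma carriers. The part of any of these cell types in the levels of the 38 genes was not tested, and in whole liver fewer cells of a type and less RNA per cell cannot be told apart.

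**Figure D4:**
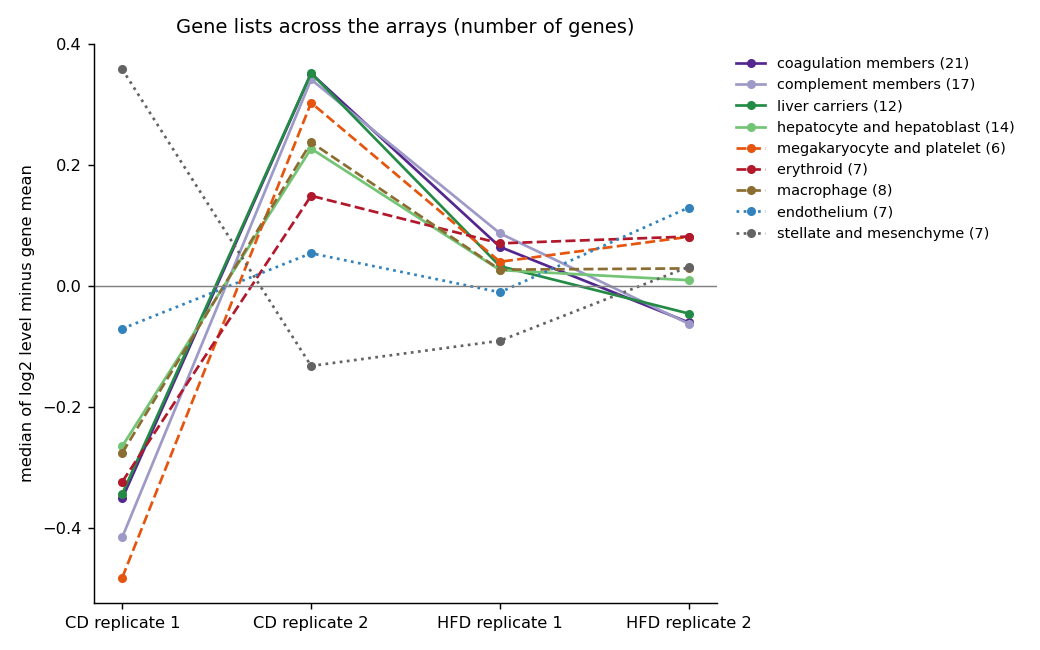
Median, for each gene list and array, of the log2 level minus the gene's mean over the 4 arrays, with the number of genes in brackets. Coagulation and complement genes run with the plasma carriers from low on CD replicate 1 to high on CD replicate 2. The endothelial markers stay near 0. The median of the stellate and mesenchymal markers runs the opposite way, although Reln and Lrat in that list do not.

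When each array was centred on the hepatocyte markers, a step chosen after seeing the data, the median difference between the CD arrays over the 38 genes fell from 0.74 to 0.25. CD replicate 2 was then higher in 33 of the 38, and both HFD arrays lay between the CD arrays in 18. The median fold change between the diets was -0.02, and 0 of the 38 fell under an unadjusted limma p of 0.05 (1.63% of all probes). The centring subtracted 1 value per array from every probe, -0.26 on CD replicate 1 and 0.23 on CD replicate 2. The fall was therefore set by the markers and was the same for every probe. It moved the median of all probes between the CD arrays to -0.46.

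Which CD array was kept decided the sign of the comparison between the diets. Without CD replicate 1, 36 of the 38 genes had a fold change below 0 and the median was -0.34. In that fit the unadjusted limma p was under 0.05 for 9 genes, Hc, C8a, Plg, F9, Fgb, Cfb, F5, F12 and Serpind1, while 20.8% of all probes were under it. Without CD replicate 2, all 38 were above 0, the median was 0.38, and the unadjusted limma p was under 0.05 for 12 genes, C9, C8b, Fgg, C4b, C8a, F5, Cfb, Fgb, Cpb2, Cfi, C3 and C2, while 14.8% of all probes were under it. Where both HFD arrays lay between the CD arrays, as in 35 of the 38 genes, the change of sign followed from the order of the arrays. No gene passed after adjustment in either fit (smallest adjusted p = 0.222 and 0.335, limma), where the single CD array was assumed to vary like the HFD arrays. Leaving out an HFD array moved the median to -0.04 (without replicate 1) or 0.07 (without replicate 2), and limma gave 0 genes an unadjusted p below 0.05 in both (2.48% and 1.88% of all probes).

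**Figure D5:**
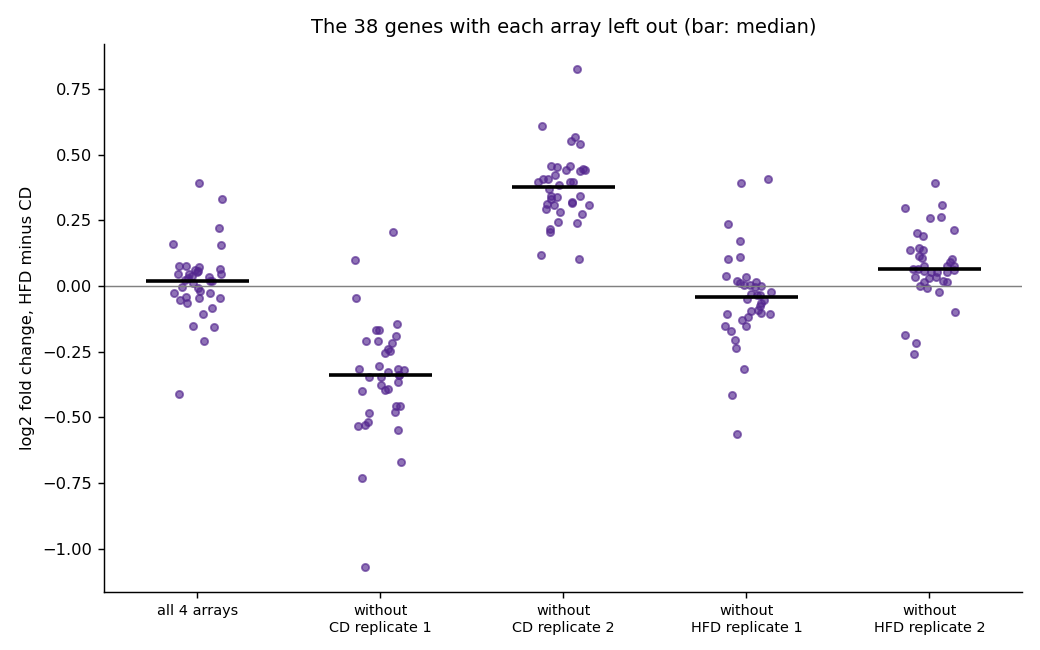
Log2 fold change (HFD minus CD) of the 38 genes with all 4 arrays and with each array left out in turn, with a bar at the median. The median moves from 0.02 to -0.34 without CD replicate 1 and to 0.38 without CD replicate 2, and stays between -0.04 and 0.07 when an HFD array is left out.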

How the data were processed

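Total RNA from fetal livers at 14.5 dpc was labelled with Cy3 and hybridised by the authors. They read the slide with Agilent Feature Extraction 11.0.1.1 and deposited 1 file per array, with the intensity of each spot after background subtraction, each spot's raw median and its local background, and scores of 0 or 1, deposited beside them, that mark outlying spots, saturated spots and spots clearly above background. A further table of scaled signal was deposited, and it equals the intensity divided by 1 constant per array (within 0.1% for 100% of the probes compared).

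Spots of a probe were averaged as log2 intensity without outlier spots, and the 75th percentile of each array was subtracted. Of the 56605 probes, 32994 had 1 RefSeq symbol and 23611 had none. Probes that fell under the 20th percentile anywhere (14981), probes with every spot marked as an outlier on some array (9) and probes with a CV over 50% in both groups (284) were left out. These filters were modelled on the study's methods, which put the CV on a log scale where the linear scale was used here, and drop probes with a compromised flag. The remaining 41332 probes were tested in R 4.3.3 by moderated linear models (limma 3.58.1, 4 arrays, no covariates). A probe passed both cutoffs with a 2-fold change and an unadjusted p under 0.05, read beside Benjamini-Hochberg adjustment over all probes. The fit was tested on simulated data. Figures used matplotlib 3.10.9 in Python 3.11.15. The precision is limited by 2 arrays a diet.

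Named with values on every array were genes with an unadjusted p under 0.05, genes with groups that did not overlap at 1.5-fold, and the gene with the smallest p in each role. The members, lists and tests were chosen with earlier results of these data known. The alternatives were quantile normalization, normexp (offset 50), the deposited table, other filters, the methods' t-test, a replicate block, leaving out each array, the mean over probes, and centring on hepatocyte markers (added after seeing the data). Values of some other pathway genes are not reported here.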

Additional observations from a re-analysis of the deposited data

How the results depend on the processing

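The count of coagulation and complement genes past both cutoffs stayed at 0 under every alternative except the fit without CD replicate 1, where Plg passed (0 to 1 over the arrays left out). The count of other pathway genes went from 0 to between 0 and 2 with arrays left out (C1rb among them without CD replicate 1, F3 without HFD replicate 1) and was 1 after centring on the hepatocyte markers. The median fold change of the coagulation genes ranged from -0.35 to 0.34, that of the complement genes from -0.32 to 0.42 and that of all 38 from -0.34 to 0.38 with an array left out, and from -0.05 to 0.03 under the other alternatives. With quantile normalization 9 of the 38 genes changed sign, among them Fga (-0.0236) and C3 (-0.0003), and with the mean over all probes C3 was -0.0118. With an array left out, the fold change ranged from -0.21 to 0.32 for Fga, from -0.15 to 0.29 for F8, from -0.48 to 0.31 for F12, from -1.07 to 0.25 for Plg, from -0.46 to 0.41 for Serpind1, from -0.41 to 0.31 for Mbl2, from -0.33 to 0.42 for C3 and from -0.0444 to 0.83 for C9, while Pros1 (0.11 to 0.21) and C4b (0.10 without CD replicate 1 to 0.57 without CD replicate 2) kept their sign.

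Over all probes, 318 passed both cutoffs, against 48 with normexp, 845 with no percentile filter, 97 with the methods' t-test and 654 to 1226 with an array left out. The cause was not tested. The labels give only replicate numbers, and whether these pair the arrays is not known. The differences between replicates 2 and 1 of the diets correlated at -0.10 over probes, which cannot decide this with 1 difference a diet. The fit with the replicate block gave 435 probes and 0 of the 38 genes past both cutoffs. After Benjamini-Hochberg adjustment, 0 of the 38 genes passed in limma under any alternative run.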
